A study of Mus musculus with 9 samples.

Results

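The nuclear genes for subunits of the mitochondrial oxidative phosphorylation complexes were followed through the last steps of mouse sperm formation. They were chosen by symbol: protein-coding genes whose names begin with Ndufa, Ndufb, Ndufc, Ndufs or Ndufv, with Uqcr, with Cox4 to Cox8 or with Atp5, plus Sdha, Sdhb, Sdhc and Sdhd. Cox6b1, Cox6b2, Cox7b, Cox7b2, Cox8a and Cox8c were set apart from the set. The rule found 89 of the 21401 protein-coding genes in a table of 50493 features. They were 40 structural genes of complex I, 8 complex I assembly factors named Ndufaf, 4 genes of complex II, 8 of complex III, 12 of complex IV and 17 of complex V. Subunits encoded by mitochondrial DNA were not analysed here.

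The 9 libraries hold RNA of germ cells from the testes of wild-type mice, 3 for each of 3 stages. The first stage is the pachytene spermatocyte (PAC), which is in meiotic prophase. Meiosis yields the round spermatid (RS), and the elongating spermatid (ES) then condenses its nucleus and takes on the shape of a sperm. No group carried an altered allele or a treatment, and the wider study is about PIWIL1 and a long non-coding RNA named TSCL1. The design text calls the libraries biological replicates. The sources used here give neither the number and age of the mice nor the way the cells were purified, so p-values measure the spread between these libraries.

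Oxidative phosphorylation moves electrons from NADH and succinate through complexes I, II, III and IV to oxygen, and complex V, the ATP synthase, uses the resulting proton gradient to make ATP. Most subunits are made from nuclear genes and imported, and complexes I, III, IV and V also hold subunits from mitochondrial DNA. Male germ cells are known for testis-specific isoforms of several respiratory proteins, and the mitochondria that remain in the sperm are wrapped around the midpiece of the tail.

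Total estimated counts ran from 22910156 to 33801617 per library, and 85 of the 89 genes passed the filter on low counts. The 4 that did not were Cox4i2, Cox6a2, Cox8b and Ndufb4b. Levels are CPM, a library's counts scaled to a common total, after TMM scaling, a correction for differences in library composition, and FPKM is used where genes are compared with each other. Summed over 10 genes each, pachytene markers were highest in PAC, at 2988–3310 CPM against 1204–1253 in RS and 1179–1301 in ES. Round spermatid markers were at 1286–1386 CPM in PAC, 2957–3210 in RS and 3482–4160 in ES, and elongating spermatid markers at 2329–3231, 16620–18915 and 47740–78316 CPM. Of the round spermatid markers, 8 of 10 were lower in ES than in RS and 1, Tssk6, was higher, at a mean of 626 CPM in RS and 2701 in ES. Somatic markers were also present: 12 Sertoli cell markers summed to 41.6–95.0 CPM in PAC, 9.87–11 in RS with Amh at 0, and 301–350 in ES. The 10 Leydig cell markers summed to 110–146 CPM in PAC, 2.48–2.65 in RS with Lhcgr at 0, and 29.8–36.9 in ES. The 12 macrophage and blood markers summed to 6.47–7.99, 19.4–23.4 and 173–272 CPM for the same stages, and the 9 peritubular and vascular markers to 6.47–8.51, 15.5–25.1 and 22.1–25.7 CPM.

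RefSeq promoter windows on GRCm38.p6, from 250 bases before to 50 bases after the start, were at hand for 72 of the 89 genes. Several are shown because factors known to drive respiratory genes, such as NRF1 and YY1, bind short recognisable words near their starts. In the windows of Uqcrc1 (chr9:108936398-108936697, plus strand) and Ndufa11 (chr17:56717512-56717811, plus strand), capitals mark the NRF1 word GCGCATGCG or its form with free central bases, GCGCNNGCG, on either strand, and in Ndufa11 also the cyclic AMP response word TGACGTCA. In that of Atp5pb (chr3:105959214-105959513, minus strand), capitals mark the YY1 word AAGATGGC, present here on the opposite strand.
Uqcrc1: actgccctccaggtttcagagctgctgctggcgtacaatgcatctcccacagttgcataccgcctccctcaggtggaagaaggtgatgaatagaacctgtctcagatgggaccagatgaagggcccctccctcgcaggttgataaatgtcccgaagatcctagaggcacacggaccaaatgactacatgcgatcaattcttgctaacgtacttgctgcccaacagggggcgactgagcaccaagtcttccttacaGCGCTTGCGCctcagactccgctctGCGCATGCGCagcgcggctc
Ndufa11: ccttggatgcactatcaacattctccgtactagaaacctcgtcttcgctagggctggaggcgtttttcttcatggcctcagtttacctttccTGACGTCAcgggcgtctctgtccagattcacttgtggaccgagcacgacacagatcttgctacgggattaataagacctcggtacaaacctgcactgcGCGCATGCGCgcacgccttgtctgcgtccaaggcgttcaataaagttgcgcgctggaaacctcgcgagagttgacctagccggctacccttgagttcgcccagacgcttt
Atp5pb: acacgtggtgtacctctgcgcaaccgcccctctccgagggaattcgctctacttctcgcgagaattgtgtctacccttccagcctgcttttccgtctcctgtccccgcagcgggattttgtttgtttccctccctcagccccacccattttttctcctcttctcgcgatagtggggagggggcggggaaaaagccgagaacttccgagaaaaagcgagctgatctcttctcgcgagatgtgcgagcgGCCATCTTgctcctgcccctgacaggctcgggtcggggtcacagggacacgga

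Both strands were searched, and every exact NRF1 word is also counted under the form with free central bases. The exact NRF1 word stood in 13.9% of the members' windows (10 genes: Atp5g2, Atp5k, Atp5l, Cox6a1, Ndufa8, Ndufa11, Ndufaf4, Ndufaf5, Uqcr11 and Uqcrc1) and in 2.66% of the 17182 protein-coding windows. The form with free central bases stood in 44.4% against 18.4%, and the YY1 word in 15.3% against 3.57%. The cyclic AMP word stood in 5.56% against 2.59%. The ETS word CCGGAAGT was in 5.56% against 5.76%, and the CCAAT box, CCAAT, in 40.3% against 42.3%. Among members that were lower in RS than in PAC, 6 of 35 windows (17.1%) held the exact NRF1 word, and among members with no call between those cells 4 of 33 (12.1%) did. These are matches of letters, and binding was not measured.

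Together the 89 genes took a falling share of the RNA from PAC to ES. Their summed level was 11435, 9219 and 7529 CPM in the PAC libraries, 6607, 7007 and 6749 CPM in RS, and 5961, 5690 and 4686 CPM in ES. Every PAC library lay above every RS library, and every RS library above every ES library. As a share of the counts of protein-coding genes alone, the sum came to 1.29%, 1.10% and 0.873% for the PAC libraries, 0.784%, 0.821% and 0.794% for RS, and 0.525%, 0.568% and 0.474% for ES. The PAC libraries differed widely among themselves: replicate 1 was the highest of the 3 for 79 of the 85 genes tested, and replicate 3 the lowest for 77. The median coefficient of variation across the genes was highest in PAC, at 20.2%, against 6.94% in RS and 16.2% in ES. In such bulk libraries, fewer cells of a type and less RNA per cell cannot be told apart.

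**Figure D1:**
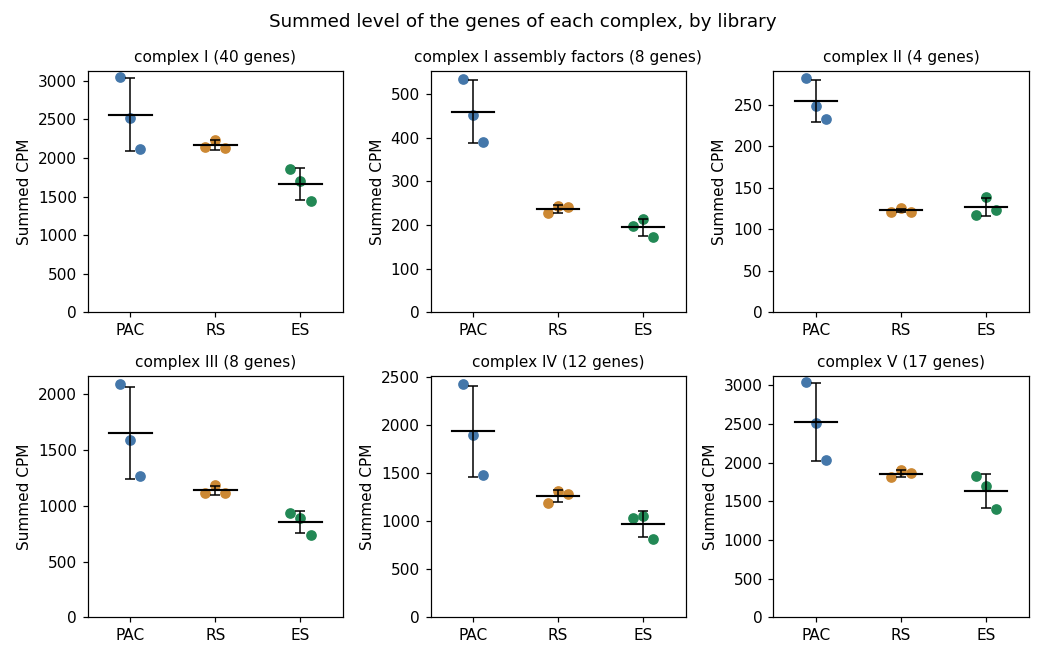
Summed CPM of the genes of each class (vertical axis, from 0) in PAC, RS and ES, with 1 point per library, a bar at the mean and an error bar of 1 SD (n = 3). Complex II fell from a mean of 255 CPM in PAC to values near 123 to 127 in RS and ES, while the complex I sum overlapped between PAC and RS.

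Of the 85 genes, 65 had their highest mean CPM in PAC, 12 in RS and 8 in ES, and 55 had their lowest mean in ES. Per length, 36 genes exceeded 100 FPKM in PAC, 31 in RS and 20 in ES. The levels spanned a wide range in every cell type, from Cox6c, an accessory subunit of complex IV, at 1014 ± 262 FPKM (SD, n = 3) in PAC, to Ndufaf6, a complex I assembly factor, at 0.247 ± 0.130 FPKM in RS. Across the 85 genes, the effective length implied by the ratio of counts to FPKM and the mean FPKM had a Spearman correlation of -0.13, a description over genes that share all 9 libraries.

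Between RS and PAC, 46 of the 85 genes were lower in RS and 3 were higher, by edgeR (quasi-likelihood test, Benjamini-Hochberg adjusted p below 0.05). Over all protein-coding genes tested, 46.9% were called lower and 26.3% higher, so the lower share among the members was near the background and the higher share below it. The median log2 difference was -0.46 for the members and -0.46 for protein-coding genes, while it was 0.11 over all 26030 features, of which 34.2% were lower and 38.2% higher. When protein-coding genes alone entered the scaling and the test, 24 members were lower and 12 higher, with medians of -0.07 for both the members and the coding genes. For 49 members all 3 RS libraries lay below all 3 PAC libraries, and for 5 above, where 50.0% and 29.5% of protein-coding genes did so.

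Between ES and RS, 27 members were lower in ES and 9 higher, against 21.7% and 31.8% of protein-coding genes and 22.1% and 24.5% of all features. The median log2 difference was -0.32 for the members, 0.18 for protein-coding genes and 0.05 for all features. The ES libraries lay entirely below the RS libraries for 39 members and entirely above for 12, where 28.0% and 37.6% of protein-coding genes did so. The difference between both medians was -0.50 here, and under every alternative of scaling, filter, test or left-out library it stayed between -0.59 and -0.36. The number called lower depended on the scaling: it was 49 by total counts and 17 with the size factors of DESeq2. It was also 49 with limma on FPKM, where the measure and the test differ as well.

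Between ES and PAC, 61 members were lower in ES and 6 higher, against 42.6% and 25.2% of protein-coding genes and 33.7% and 30.6% of all features. The median log2 difference was -0.92 for the members, -0.38 for protein-coding genes and -0.09 for all features. The libraries did not overlap for 60 members that were lower and 7 that were higher, where 44.1% and 26.6% of protein-coding genes were lower or higher in that sense. All 3 comparisons share libraries in pairs, so their counts are not independent. In this comparison 51 of the 61 lower calls and 4 of the 6 higher calls held under all 21 alternatives, and between RS and PAC 24 of 46 and 2 of 3 did. Between ES and RS, 17 of 27 lower calls and 3 of 9 higher calls held.

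**Figure D2:**
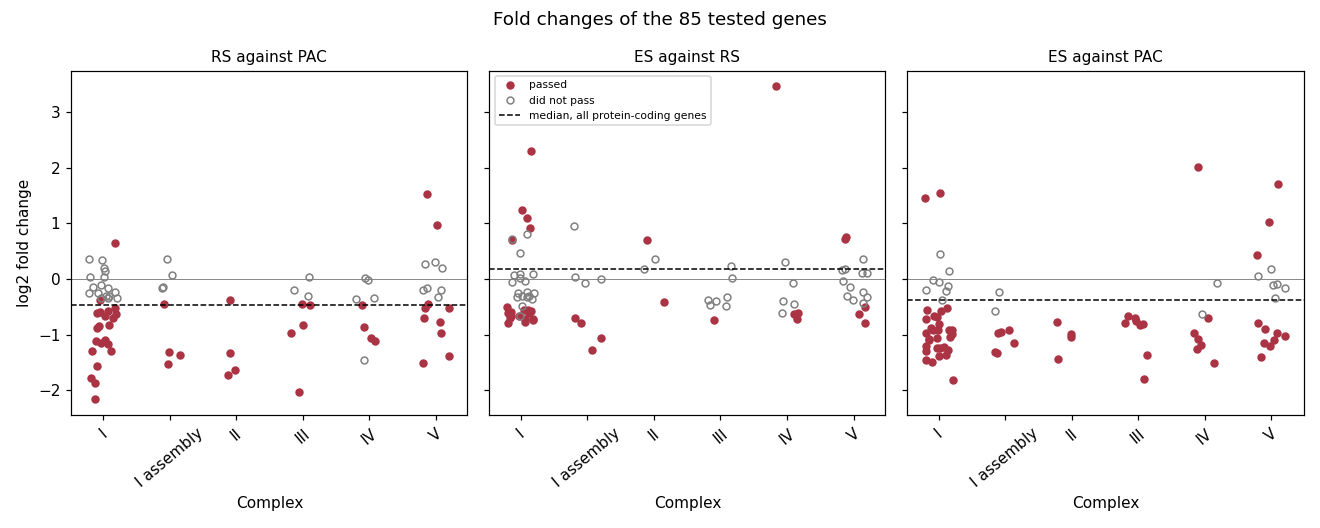
Log2 fold change of each of the 85 genes tested, by class, for RS against PAC, ES against RS and ES against PAC. Points below the line at 0 are lower in the later cell type. In ES against PAC, 61 genes were called lower and 6 higher, and every tested gene of complexes II and III was called lower.

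Complex I takes electrons from NADH and passes them to ubiquinone. Of its 39 structural genes tested, 21 (53.85%) were lower and 1 higher in RS than in PAC, where 46.9% of protein-coding genes were lower. Between ES and RS 15 (38.5%) were lower and 5 higher, against 21.7% lower in the background. Between ES and PAC 29 (74.4%) were lower and 2 higher, against 42.6% lower. The share called lower in RS was thus near the background. Higher calls made up 2.56%, 12.8% and 5.13% in these comparisons, against 26.3%, 31.8% and 25.2% of protein-coding genes. Median log2 differences of the 39 genes were -0.53, -0.32 and -0.92, against -0.46, 0.18 and -0.38 for protein-coding genes. The most abundant was Ndufa12, an accessory subunit of the peripheral arm, at 408.5 ± 79.3 FPKM in PAC, 435 ± 23.3 in RS and 209 ± 14.3 in ES. It did not pass the test between PAC and RS (log2 0.03, SE 0.16, adjusted p = 0.862) and fell in ES (log2 -0.72 against RS, adjusted p = 0.00304).

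The nuclear core subunits that carry the flavin and the iron-sulphur clusters did not move in parallel. Ndufs8, which holds a pair of iron-sulphur clusters near the quinone site (chr19:3908863-3912774), was at 57.9, 47.0 and 39.4 CPM in the PAC libraries, 15.8, 13.6 and 12.9 in RS and 22.92, 21.98 and 23.8 in ES. No groups overlapped, with RS lowest and ES between. Its log2 difference was -1.77 (SE 0.17, adjusted p = 3.86e-06) for RS against PAC, and it was 0.70 higher in ES than in RS (adjusted p = 0.00452). The rise in ES was 0.37 and was not called when libraries were scaled by total counts alone, and across all alternatives it ranged from 0.36 to 0.85 with adjusted p from 4.53e-05 to 0.122. By contrast Ndufv2, a flavoprotein-module subunit, was at 260, 223 and 205 CPM in PAC, 256, 266 and 237 in RS and 167, 163 and 132 in ES. PAC and RS overlapped, and ES lay below both (log2 -0.72 against RS, adjusted p = 0.00156).

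The core subunits Ndufs1, Ndufs3, Ndufs7 and Ndufv1 were lower in ES than in PAC without a trough in RS. Ndufs1, the largest subunit of the NADH-oxidising arm, changed by log2 -1.05 in ES against PAC (adjusted p = 0.000105). The values for Ndufs3, Ndufs7 and Ndufv1, which binds NADH and the flavin, were -0.72, -1.10 and -0.81, and each was called. Between RS and PAC, Ndufs7 and Ndufv1 fell by 0.60 and 0.57 on the log2 scale. Ndufs1 was called there at -0.38 (adjusted p = 0.0413), but without any 1 of the PAC and RS libraries it was not (-0.41 to -0.35), and it came to 0.01 when scaled on protein-coding genes alone. Without RS replicate 3, Ndufs7 was not called either (-0.50), and Ndufs3 missed the threshold at -0.35 (adjusted p = 0.051).

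The accessory subunit Ndufc2 of the membrane arm (chr7:97400003-97407800) had the largest fall of the complex in RS, at a low level. It was at 7.93, 5.19 and 4.76 CPM in PAC, 1.60, 0.847 and 1.55 in RS and 2.49, 2.31 and 1.75 in ES, with no overlap between the groups. The log2 difference between RS and PAC was -2.17 (SE 0.31, adjusted p = 7.65e-05), and that between ES and RS, 0.71, was not called (adjusted p = 0.0838). Ndufb6, another membrane-arm subunit, had the largest fall from PAC to ES, from 22.7, 13.4 and 10.5 CPM to 3.78, 5.86 and 3.50 (log2 -1.82, adjusted p = 0.000202). Ndufb5, from the same arm, had the largest called fall from RS to ES (log2 -0.79, adjusted p = 0.00193). Ndufb4 and Ndufb4c are close paralogues whose reads may have been split between them, and their values are uncertain. Both were lower in ES than in PAC, at -0.93 and -1.39. Between RS and PAC only Ndufb4c was called (-0.89, adjusted p = 0.0138), and without PAC replicate 1 (-0.55) or RS replicate 3 (-0.73) it was not.

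Ndufa4 was first described in complex I and is now placed in complex IV. By its symbol it was counted here with the structural genes of complex I, and not with complex IV. It was at 4.82, 4.20 and 2.45 CPM in PAC, 1.12, 1.04 and 0.993 in RS and 5.46, 5.02 and 5.11 in ES. All RS libraries lay far below both other groups (log2 -1.87, adjusted p = 8.88e-05 against PAC), and ES rose 4.94-fold over RS (log2 2.30, SE 0.27, adjusted p = 5.1e-05). ES lay above PAC in every library, but that difference missed the threshold (log2 0.44, adjusted p = 0.147). Its paralogue Ndufa4l2, known as a hypoxia-induced gene, did not follow: it was at 10.5, 11.3 and 13.0 CPM in PAC, 13.1, 10.9 and 11.54 in RS and 5.46, 9.28 and 9.27 in ES. Its lower level in ES than in RS just passed (log2 -0.56, adjusted p = 0.0483), and it was not called without PAC replicate 2 (-0.58), without any RS replicate (-0.64 to -0.50) or without ES replicate 1 (-0.35). In FPKM, Ndufa4 made up 36.8 ± 10% of the pair in PAC, 13.5 ± 0.757% in RS and 54.2 ± 8.29% in ES. The Sertoli cell marker sum was also lowest in RS (9.87–11 CPM) and highest in ES (301–350 CPM), and its part in the Ndufa4 values was not tested.

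Ndufa13, a membrane-arm subunit also known as GRIM-19, was the structural gene of complex I with the largest rise from PAC to ES. It was at 85.6, 75.2 and 53.2 CPM in PAC, 113, 118 and 102.5 in RS and 309, 148 and 167 in ES. No groups overlapped, and ES replicate 1 stood well above the other ES libraries. The log2 differences were 0.64 (adjusted p = 0.0495) for RS against PAC, 0.91 (adjusted p = 0.0168) for ES against RS and 1.54 (SE 0.27, adjusted p = 0.000475) for ES against PAC. The first was lost under 11 of the 21 alternatives, among them without PAC replicate 2 (0.68) or 3 (0.47) and without any RS replicate (0.60 to 0.70). The second was lost without RS replicate 1 (0.90) or 3 (0.84) and came to between 0.33 and 1.10 over all alternatives. The gene (chr8:69894163-69902558, minus strand, GRCm38.p6) shares 375 exonic bases with Tssk6 (chr8:69902184-69903518, plus strand), a spermatid kinase gene. Tssk6 averaged 88.0 CPM in PAC, 626 in RS and 2701 in ES. The sources used here do not say whether the counting used strand, so reads of the shared bases may have been given to either gene. The part of Tssk6 in the Ndufa13 values was not tested. The RefSeq promoter window of Ndufa13 (chr8:69901971-69902270, minus strand) is printed because it enters the other gene, and the capitals mark the 87 bases that lie inside the Tssk6 span. All 375 shared bases lie before the start on which this window is built, so transcripts from that start do not hold them.
Ndufa13: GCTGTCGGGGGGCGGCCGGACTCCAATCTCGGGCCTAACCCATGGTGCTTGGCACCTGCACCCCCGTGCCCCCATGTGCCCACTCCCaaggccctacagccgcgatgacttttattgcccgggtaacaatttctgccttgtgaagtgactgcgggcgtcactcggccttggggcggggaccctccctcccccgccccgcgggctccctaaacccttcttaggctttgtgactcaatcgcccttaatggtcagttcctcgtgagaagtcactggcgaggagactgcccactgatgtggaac

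**Figure D3:**
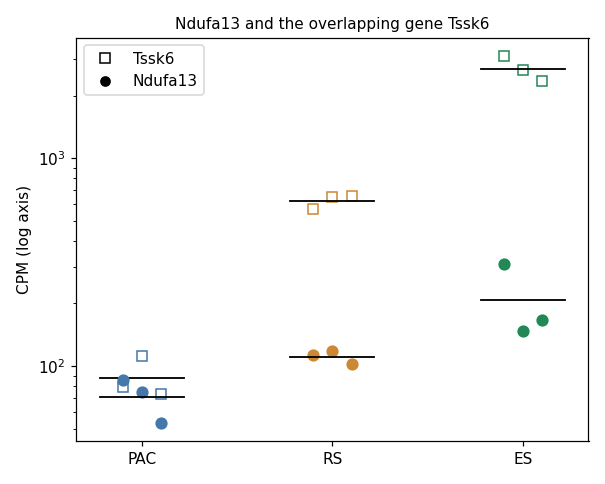
CPM of Ndufa13 (filled circles) and of the overlapping gene Tssk6 (open squares) in each library, on a log axis, with a line at each group's mean. Tssk6 rose from a mean of 88.0 CPM in PAC to 2701 in ES, and Ndufa13 from PAC values of 53.2 to 85.6 CPM to ES values of 148 to 309.

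The 8 Ndufaf genes encode factors that help build complex I and are not part of the finished enzyme. In RS, 4 of them (50%) were lower than in PAC, near the 46.9% of protein-coding genes. Between ES and RS 4 (50%) were lower, against 21.7%, and between ES and PAC 6 (75%), against 42.6%. None was called higher in any comparison, where 26.3%, 31.8% and 25.2% of protein-coding genes were, in the same order. Ndufaf3 (chr9:108565587-108567436), which acts early in assembly, was by far the most abundant, at 327 ± 51.5 FPKM in PAC, 136.5 ± 8.57 in RS and 109 ± 17.1 in ES. Its CPM values were 394, 325 and 281 in PAC, 125, 133.5 and 142.5 in RS and 132, 147 and 121 in ES, so PAC stood apart and RS and ES overlapped (log2 -1.32, SE 0.15, adjusted p = 1.47e-05 for RS against PAC). Ndufaf7, a mitochondrial methyltransferase, had the same course, with -1.36 for RS against PAC and 0.03 for ES against RS. Ndufaf2, a relative of Ndufa12, took another course. It was at 43.3, 34.0 and 28.9 CPM in PAC, 46.4, 50.5 and 38.4 in RS and 20.7, 18.8 and 16.7 in ES, with a fall of 1.27 on the log2 scale from RS to ES (adjusted p = 0.000175). Ndufaf6 was near the limit of the counts at 0.164 to 0.840 CPM in PAC and RS, and its lower call in RS (-1.52, adjusted p = 0.0244) was lost under 6 alternatives, among them without PAC replicate 1 (-1.38) or 2 (-1.42) and without RS replicate 2 (-1.30) or 3 (-1.33).

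Complex II, succinate dehydrogenase, joins the citric acid cycle to the respiratory chain and is encoded wholly in the nucleus. All 4 of its genes were lower in RS than in PAC and lower in ES than in PAC. Of protein-coding genes, 46.9% and 42.6% were. Sdhd, a membrane anchor (chr9:50596340-50603849), was at 86.0, 74.5 and 58.6 CPM in PAC, 20.1, 20.8 and 25.2 in RS and 34.7, 40.4 and 31.7 in ES. RS lay lowest and no groups overlapped. The log2 difference was -1.73 (SE 0.18, adjusted p = 6.39e-06) for RS against PAC and 0.69 (adjusted p = 0.00641) for ES against RS, and the latter was 0.37 and not called by total counts alone. Sdhc, the other anchor, fell by 1.63 on the log2 scale in RS (adjusted p = 9.5e-06) and did not change further by the test (0.19, adjusted p = 0.406).

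Sdha, the catalytic subunit that holds the flavin, was at 35.6, 37.5 and 57.0 CPM in PAC, 18.5, 17.0 and 16.0 in RS and 13.0, 22.3 and 30.5 in ES. Its RS level was lower than in PAC (log2 -1.33, adjusted p = 0.00143), and RS and ES overlapped. It was highest in PAC replicate 3, the library where 77 of the 85 genes were lowest of the PAC group. Sdhb, the iron-sulphur subunit, showed smaller differences. It was at 101, 83.6 and 74.0 CPM in PAC, 66.7, 70.1 and 63.1 in RS and 53.3, 53.1 and 44.1 in ES. Its log2 steps were -0.37 (adjusted p = 0.0389) and -0.41 (adjusted p = 0.0395), and the first came to 0.02 when scaled on protein-coding genes alone. The first was also lost without PAC replicate 1 (-0.25) or 2 (-0.39) or without any RS replicate (-0.40 to -0.33), and the second without any RS replicate (-0.46 to -0.39) or without ES replicate 2 (-0.45) or 3 (-0.33).

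Complex III passes electrons from ubiquinol to cytochrome c. In RS, 5 of its 8 genes (62.5%) were lower than in PAC, against 46.9% of protein-coding genes. Between ES and RS 1 (12.5%) was lower, against 21.7%, and between ES and PAC all 8, against 42.6%. None was called higher in any comparison, where 26.3%, 31.8% and 25.2% of protein-coding genes were, in the same order. Uqcrc2, a core protein related to the mitochondrial processing peptidases (chr7:120635189-120659523), was at 339, 258 and 207.5 CPM in PAC, 61.9, 65.0 and 68.5 in RS and 73.8, 86.4 and 70.3 in ES. PAC stood apart from both spermatid stages, with an RS level 0.243 times that of PAC (log2 -2.04, SE 0.18, adjusted p = 2.4e-06), and the small step to ES was not called (0.24, adjusted p = 0.282). Under the alternatives the first value ranged from -2.19 to -1.65 and was always called. Its last exons overlap those of Pdzd9 on the opposite strand by 504 bases, and Pdzd9 averaged 201, 143 and 107 CPM in PAC, RS and ES.

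Uqcrc1, its partner core protein, was at 487, 391 and 334 CPM in PAC, 319.5, 299 and 271 in RS and 234, 222 and 227 in ES. Levels fell in order without overlap, but by less than those of Uqcrc2: -0.45 (adjusted p = 0.018) for RS against PAC and -0.83 (adjusted p = 0.000465) for ES against PAC. The former was not called without PAC replicate 1 (-0.29) or RS replicate 2 (-0.44) or 3 (-0.38), and it came to between -0.56 and -0.05 over all alternatives. Uqcrfs1, the Rieske iron-sulphur protein, was at 194.5, 161 and 126 CPM in PAC, 142, 175 and 172 in RS and 91.6, 118 and 85.4 in ES. PAC and RS overlapped, and ES was lower than RS (log2 -0.74, adjusted p = 0.00633). Uqcrq, a small subunit and the most abundant of the complex per length at 447 ± 133.5 FPKM in PAC, was called only between ES and PAC (log2 -0.76, adjusted p = 0.0146), and without PAC replicate 1 it was not (-0.51).

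**Figure D4:**
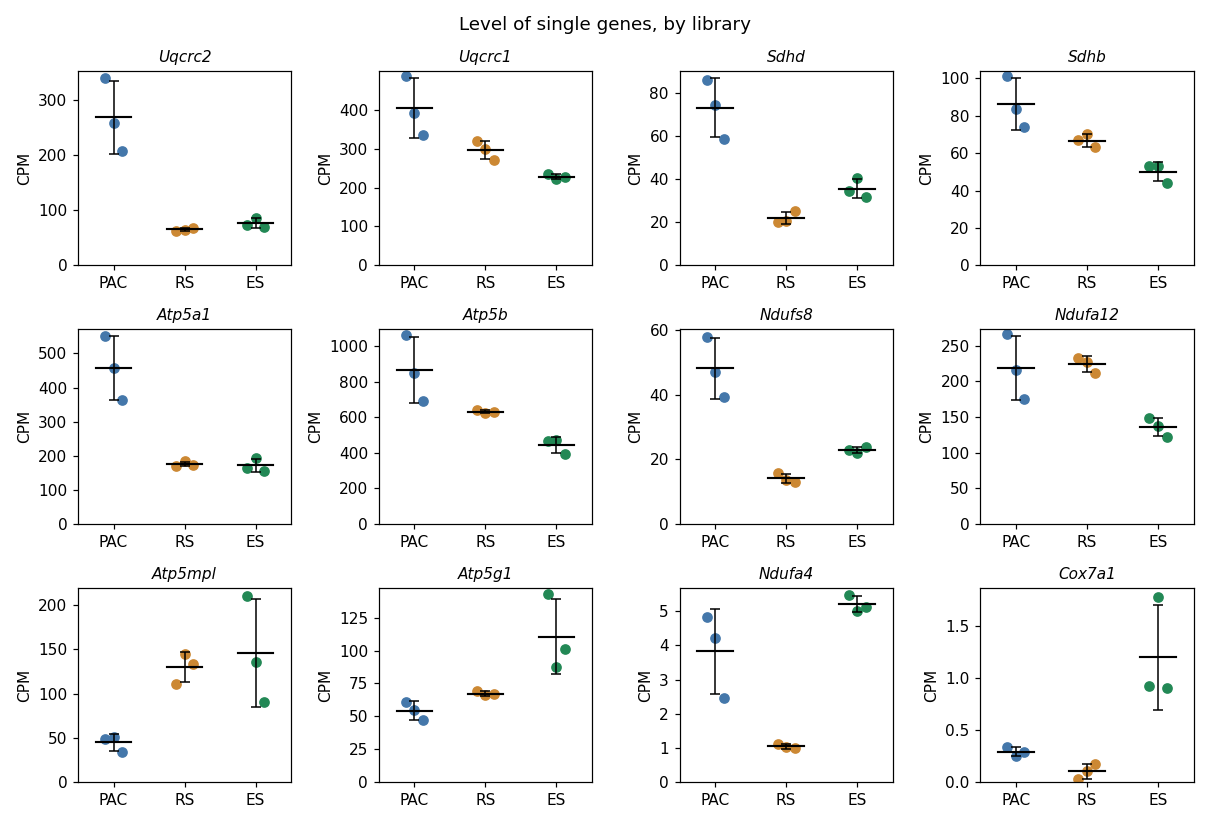
CPM in each library for 12 members (vertical axes from 0), with 1 point per library, a bar at the mean and an error bar of 1 SD (n = 3). Uqcrc2, Sdhd, Atp5a1 and Ndufs8 stand high in PAC alone, Atp5mpl stands low in PAC alone, and Ndufa4 is lowest in RS.

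Complex IV, cytochrome c oxidase, reduces oxygen. Of its 9 genes tested, 4 (44.4%) were lower in RS than in PAC, near the 46.9% of protein-coding genes. None was called higher there, against 26.3%. Between ES and RS 3 (33.3%) were lower and 1 (11.1%) higher, against 21.7% lower and 31.8% higher in the background. Between ES and PAC 6 (66.7%) were lower and 1 (11.1%) higher, against 42.6% and 25.2%. Cox4i1, the ubiquitous isoform of subunit IV (chr8:120668225-120674209), was at 632, 485.5 and 390.1 CPM in PAC, 220.1, 240.1 and 237 in RS and 236, 236 and 189 in ES. PAC stood apart and RS and ES overlapped (log2 -1.11, SE 0.17, adjusted p = 0.000165 for RS against PAC). Cox6c, the most abundant member of all by FPKM, fell by 1.06 in RS and by 1.51 in ES on the log2 scale, both against PAC. Cox5a, a subunit on the matrix side, was at 117, 97.3 and 84.7 CPM in PAC, 97.5, 102 and 102 in RS and 54.4, 69.4 and 59.7 in ES. It was called only in ES (log2 -0.71 against RS, adjusted p = 0.00229).

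The isoform genes of complex IV known from heart and skeletal muscle were almost silent. Cox6a2 and Cox8b had no count in any library, which allows up to 0.0819 to 0.162 CPM (3 counts) depending on the library, and Cox4i2, known from lung, had a count in 1 RS library alone. Cox6a1, the ubiquitous counterpart of Cox6a2, was at 17.5, 17.5 and 18.7 CPM in PAC and fell in RS (log2 -0.86, adjusted p = 0.00125). Cox7a1, also a muscle isoform, was detected at 0.342, 0.256 and 0.288 CPM in PAC, 0.0301, 0.109 and 0.175 in RS and 0.919, 1.78 and 0.899 in ES. ES lay above both other groups (log2 3.46, SE 0.59, adjusted p = 0.000601 against RS), at levels that came to 2.89 ± 1.4 FPKM. The macrophage and blood markers (173–272 CPM) and the Sertoli cell markers were also highest in ES, and their part was not tested. Its ubiquitous counterpart Cox7a2 was at 207 ± 72.8 FPKM in ES and was called in no comparison, and Cox7a2l, which helps join complexes III and IV, was not called either.

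Complex V makes ATP from the proton gradient. Of its 17 genes, 8 (47.1%) were lower and 2 higher in RS than in PAC, where 46.9% of protein-coding genes were lower. Between ES and RS 3 (17.6%) were lower and 2 higher, against 21.7% lower in the background, and between ES and PAC 8 (47.1%) were lower and 3 higher, against 42.6%. The shares called lower were thus near the background, and the medians were -0.33, -0.14 and -0.35. The shares called higher were 11.8%, 11.8% and 17.6%, against 26.3%, 31.8% and 25.2% of protein-coding genes. The catalytic head is built of alternating alpha and beta subunits. Atp5a1, the alpha gene (chr18:77773768-77782869), was at 550.5, 458 and 362.5 CPM in PAC, 171, 183 and 172 in RS and 164, 194 and 156.5 in ES. PAC stood apart and RS and ES overlapped, with log2 -1.38 (SE 0.16, adjusted p = 1.86e-05) for RS against PAC and -0.03 for ES against RS. Its exons overlap those of Haus1 on the opposite strand by 129 bases, and Haus1 averaged 105, 82.0 and 68.4 CPM in PAC, RS and ES. Atp5b, the beta gene (chr10:128083307-128090388), was at 1063, 852.5 and 690.5 CPM in PAC, 639, 624 and 632 in RS and 466, 473 and 393 in ES. It stepped down in order without overlap, by 0.46 (adjusted p = 0.0215) and 0.51 (adjusted p = 0.0211) in log2. The first step was not called without PAC replicate 1 (-0.29) or without any RS replicate (-0.46 to -0.44), and it ranged from -0.60 to -0.07 over all alternatives. The second was not called without any RS replicate (-0.53 to -0.52) or without ES replicate 3 (-0.44).

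A pair of small subunits of the ATP synthase membrane part rose. Atp5mpl, a small proteolipid (chr12:111961374-111967009), was at 48.5, 51.6 and 34.6 CPM in PAC, 111, 145 and 133.5 in RS and 210.2, 136 and 90.6 in ES. PAC lay below every spermatid library, 2.89-fold under RS (log2 1.53, SE 0.28, adjusted p = 0.000558). RS and ES overlapped, and the ES libraries spread widely. Atp5md, also called DAPIT (chr19:47083471-47090647), was at 28.7, 23.6 and 22.3 CPM in PAC, 47.3, 52.6 and 46.9 in RS and 31.6, 29.4 and 23.5 in ES. It was high in RS alone, 1.97-fold over PAC (log2 0.98, adjusted p = 0.000195) and back down in ES (log2 -0.80, adjusted p = 0.00158). Both rises in RS were called under all 21 alternatives.

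Subunit c, which forms the rotating ring, comes from a family of genes whose mature proteins are the same. Atp5g1 (chr11:96072793-96075694) was at 61.3, 55.0 and 47.0 CPM in PAC, 69.4, 65.9 and 66.7 in RS and 143, 87.8 and 101 in ES. It stepped up without overlap and was called higher in ES than in PAC (log2 1.02, SE 0.18, adjusted p = 0.000397) and than in RS (0.72, adjusted p = 0.00669), although the latter was 0.36 and not called by total counts alone. Atp5g2 was at 13.0, 12.1 and 9.51 CPM in PAC, 8.80, 9.04 and 9.76 in RS and 18.1, 15.0 and 13.5 in ES, with a rise of 0.76 from RS to ES (adjusted p = 0.0044). Atp5g3 fell from 6.35, 5.12 and 4.97 CPM in PAC to 1.18, 2.40 and 2.19 in RS (log2 -1.51, adjusted p = 0.00271) and was at 1.19, 3.24 and 2.93 in ES. As shares of the FPKM of the family, Atp5g1 went from 74.7 ± 0.753% in PAC to 84.1 ± 1.56% in RS and 83.3 ± 3.03% in ES, and Atp5g3 from 7.92 ± 0.465% to 2.48 ± 0.870% and 2.18 ± 1.28%. The ATP synthase inhibitor Atpif1, outside the rule by name, was at 316 ± 54.5 CPM in PAC and 293 ± 43.0 in RS, and it was lower in ES at 188 ± 22.6 (log2 -0.64 against RS, adjusted p = 0.00823).

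Subunits that sit side by side in a fixed ratio in the finished enzymes thus differed in the course of their RNA. Because such ratios are taken within a library, they do not depend on its scaling. The FPKM of Atp5a1 over that of Atp5b was 0.400, 0.415 and 0.405 in PAC, 0.206, 0.227 and 0.210 in RS and 0.272, 0.316 and 0.307 in ES. That of Uqcrc2 over Uqcrc1 went from 0.580 ± 0.033 (SD, n = 3) to 0.195 ± 0.026 and 0.297 ± 0.039. Sdhd over Sdhb went from 0.705 ± 0.042 to 0.277 ± 0.048 and 0.593 ± 0.046, and Ndufs8 over Ndufs7 from 1.55 ± 0.037 to 0.697 ± 0.046 and 1.61 ± 0.083. Others moved the opposite way: Ndufv2 over Ndufv1 went from 1.73 ± 0.075 to 2.84 ± 0.36 and 2.02 ± 0.19, and Cox5a over Cox4i1 from 0.214 ± 0.017 to 0.461 ± 0.011 and 0.300 ± 0.048. In these 6 pairs the RS libraries lay apart from the PAC and ES libraries on 1 side. The Sertoli cell and Leydig cell marker sums also set RS apart, at 9.87–11 and 2.48–2.65 CPM, below all PAC and ES libraries, and their part in these ratios and in the low RS levels of Sdhd and Ndufs8 was not tested. For Sdha over Sdhb the RS and ES ratios overlapped, and for Sdhc over Sdhd those of PAC and RS did. The pairs were picked after the values were seen, so no test is given. FPKM was made by the authors, and the sources used here do not state the lengths behind it.

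**Figure D5:**
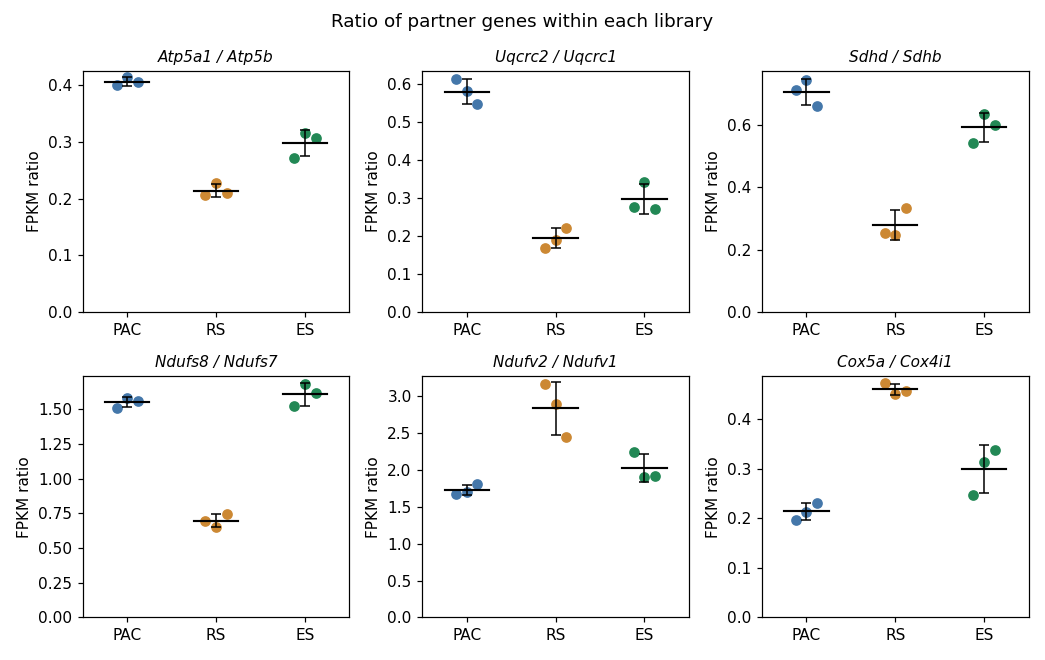
Ratio of FPKM between partner genes within each library (vertical axes from 0), with 1 point per library, a line at the mean and an error bar of 1 SD (n = 3). RS lies lowest for Atp5a1 over Atp5b, Uqcrc2 over Uqcrc1, Sdhd over Sdhb and Ndufs8 over Ndufs7, and highest for Ndufv2 over Ndufv1 and Cox5a over Cox4i1.

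The 42 assembly factors outside the symbol rule included 26 (61.9%) that were lower and 3 that were higher in RS than in PAC, where 46.9% of protein-coding genes were lower and 26.3% higher. Between ES and RS 9 (21.4%) were lower, at the background of 21.7%, and 9 (21.4%) higher, against 31.8%. Between ES and PAC 27 (64.3%) were lower and 2 higher, against 42.6% and 25.2%. Their medians were -1.12, 0.02 and -0.87. Pet117, a complex IV assembly factor, had the largest fall, from 8.15, 6.69 and 7.32 CPM in PAC to 0.271, 0.328 and 0.613 in RS (log2 -4.18, adjusted p = 9.47e-07), and stayed at 0.432, 0.577 and 0.379 in ES. Lyrm7, which escorts the Rieske protein, rose from 25.9 ± 2.31 CPM in PAC to 60.9 ± 4.93 in RS (log2 1.24, adjusted p = 5.35e-05). Cox15, needed to make haem a, was at 3.94 ± 0.509 CPM in PAC, 0.440 ± 0.05 in RS and 4.03 ± 0.741 in ES, a rise of 3.18 in log2 from RS to ES (adjusted p = 6.45e-06). The Sertoli cell marker sum was lowest in RS and highest in ES too (9.87–11 and 301–350 CPM), and its part was not tested.

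Among 16 genes for electron carriers and coenzyme Q synthesis, 11 (68.8%) were lower and 1 (6.25%) higher in RS than in PAC. The shares of protein-coding genes were 46.9% and 26.3%. Between ES and RS 1 (6.25%) was lower and 4 (25%) higher, against 21.7% and 31.8%. Between ES and PAC 10 (62.5%) were lower and 1 (6.25%) higher, against 42.6% and 25.2%. The cytochrome c genes moved in opposite directions from PAC to ES. Between RS and PAC, Cyct was lower (log2 -1.47, adjusted p = 3.42e-05) and Cycs was not called (-0.48, adjusted p = 0.0873). Cyct, the testis form, was at 256, 191 and 149 CPM in PAC, 74.8, 75.1 and 65.4 in RS and 54.6, 57.2 and 46.4 in ES, and was lower in ES than in PAC (log2 -1.91, adjusted p = 6.26e-06). Cycs, the somatic form, was at 27.6, 17.5 and 12.4 CPM in PAC, 14.1, 14.8 and 12.4 in RS and 106, 104 and 94.5 in ES (log2 2.89, adjusted p = 8.19e-06 against RS). In the ATP, ADP and phosphate transport list of 7 genes, 3 (42.9%) were higher and 3 (42.9%) lower in ES than in RS. The shares of protein-coding genes were 31.8% and 21.7%. Between RS and PAC 0 were higher and 3 (42.9%) lower, against 26.3% and 46.9%. Between ES and PAC 3 (42.9%) were higher and 4 (57.1%) lower, against 25.2% and 42.6%. Slc25a4, the ADP/ATP carrier of heart and muscle, rose from 0.597 ± 0.0662 CPM in RS to 15.0 ± 0.900 in ES (log2 4.65, adjusted p = 6.29e-06). Slc25a31, the germ cell carrier, was lower in ES than in PAC (log2 -1.54, adjusted p = 0.000141). The somatic marker sums given above were higher in ES than in RS, and their part in the Cycs and Slc25a4 values was not tested.

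Of 18 citric acid cycle and pyruvate dehydrogenase genes, 11 (61.1%) were lower and 2 (11.1%) higher in RS than in PAC. The shares of protein-coding genes were 46.9% and 26.3%. Between ES and RS 6 (33.3%) were lower and 5 (27.8%) higher, against 21.7% and 31.8%. Between ES and PAC 11 (61.1%) were lower and 4 (22.2%) higher, against 42.6% and 25.2%. Fh1, fumarate hydratase, which acts on the product of complex II, rose from 14.2 ± 1.17 CPM in PAC to 35.3 ± 1.91 in RS (log2 1.32, adjusted p = 1.33e-05) and was at 18.4 ± 2.38 in ES. Dlat, the acetyltransferase of pyruvate dehydrogenase, had the largest called fall to ES, from 266 ± 30.6 CPM in PAC to 89.1 ± 13.0 (log2 -1.58, adjusted p = 4.21e-06).

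All 10 regulators of mitochondrial biogenesis were called between RS and PAC, 8 lower and 2 higher, where 46.9% of protein-coding genes were lower and 26.3% higher. Between ES and RS 3 (30%) were higher and 1 (10%) lower, against 31.8% and 21.7% of protein-coding genes. Between ES and PAC 1 (10%) was higher and 7 (70%) lower, against 25.2% and 42.6%. Tfam, the transcription factor of mitochondrial DNA, was at 18.7, 22.5 and 16.1 CPM in PAC, 119.5, 125 and 130.2 in RS and 360.1, 191 and 150 in ES (log2 2.71, adjusted p = 1.62e-05 for RS against PAC). Yy1, whose word was searched in the promoters above, was at 73.9, 60.8 and 63.4 CPM in PAC, 7.96, 7.43 and 8.47 in RS and 15.4, 19.3 and 17.5 in ES (log2 -3.05, adjusted p = 6.83e-08 for RS against PAC).

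Of the 6 complex IV genes set apart by the rule, 5 (83.3%) were lower in RS than in PAC, against 46.9% of protein-coding genes. Between ES and RS 3 (50%) were lower, against 21.7%, and 2 (33.3%) higher, near the 31.8% of protein-coding genes. Between ES and PAC, 3 (50%) were lower, near the 42.6% of protein-coding genes, and 1 (16.7%) was higher, against 25.2%. Cox7b2, the testis form of subunit VIIb, was at 361 ± 65.4 CPM in PAC, 171 ± 7.72 in RS and 120.0 ± 2.61 in ES (log2 -1.59, adjusted p = 3.51e-06 for ES against PAC). Cox7b, the general form, was at 2.01 ± 0.559, 1.11 ± 0.136 and 3.93 ± 0.890 CPM, and rose from RS to ES (log2 1.82, adjusted p = 0.000399). Cox8c, the testis form of subunit VIII, had the largest fall in that step (log2 -0.78, adjusted p = 0.00682).

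Ribosomal protein genes, which are also mostly short and abundant, served as a yardstick. Of 78 mitochondrial ribosomal protein genes, 54 (69.2%) were lower and 6 (7.69%) higher in RS than in PAC. Between ES and RS 18 (23.1%) were lower and 12 (15.4%) higher, and between ES and PAC 60 (76.9%) and 3 (3.85%). Of protein-coding genes, 46.9%, 21.7% and 42.6% were lower in these comparisons, and 26.3%, 31.8% and 25.2% higher. Medians of the mitochondrial list were -0.89, -0.05 and -0.98, against -0.46, -0.32 and -0.92 for the 85 oxidative phosphorylation genes. Of 76 cytosolic ribosomal protein genes, 29 (38.2%) were lower and 1 (1.32%) higher in RS than in PAC. Between ES and RS 1 (1.32%) was lower and 15 (19.7%) higher, and between ES and PAC 25 (32.9%) and 8 (10.5%). Medians of the cytosolic list were -0.30, 0.11 and -0.23. The differences between these lists were not tested.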

How the data were processed

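Total RNA was depleted of ribosomal RNA and made into dUTP-stranded libraries, per the labels' protocols. HISAT2, StringTie and the build GRCm38.p6 are named, without versions or order, per the submitters' processing notes. The authors deposited estimated counts per feature, 18.85% of which are not whole, and FPKM values for the same features, with lengths that the sources used here do not state. Of the members, 6 had values that are not whole (Ndufb4, Ndufb4b, Ndufb4c, Cox7a2, Ndufs8 and Ndufaf7). Symbols came from a RefSeq table of the same build, which matched 21726 of 21877 NCBI genes.

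Counts were rounded, filtered with filterByExpr at a minimum count of 10 (26030 features kept), scaled by TMM (factors 0.758 to 1.099) and tested over all 9 libraries with edgeR's two-sided quasi-likelihood test, adjusted by Benjamini-Hochberg over all features kept and called at 0.05. The common biological coefficient of variation was 0.24. Each SE was derived from the test, as the size of the log2 difference divided by the square root of its F statistic. FPKM was tested with limma on log2(FPKM + 0.1), whose fold changes understate those of low genes, as an alternative only. The fit was tested on simulated data. No 2 libraries agreed within sampling noise. Floors of 3 counts cover counting error only. Tests ran in R 4.3.3 with DESeq2 1.42.0, limma 3.58.1 and edgeR 4.0.16, and tables and figures were made with matplotlib 3.10.9, numpy 2.4.6 and pandas 2.3.3 under Python 3.11.15.

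Named genes were the called members with the largest change per class and comparison, the most abundant member per class, the catalytic core subunits, isoform families, the inhibitor Atpif1, and the called gene with the largest change per outside list, and 1 core subunit is counted in its class but not reported here by name. Members, lists and rules were chosen with earlier results of these data known. The genes printed with promoters (Ndufa11 and Atp5pb among them) and the partner pairs were picked after values were seen. Protein sequences were not analysed here.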

Additional observations from a re-analysis of the deposited data

How the results depend on the processing

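The scaling, the genes tested and the measure moved the counts. With upper-quartile factors, 8 members were higher and 25 lower in RS than in PAC, and with protein-coding genes alone in scaling and test 12 and 24, where the coding median moved from -0.46 to -0.16 and -0.07. In ES against RS, 4 were higher and 49 lower by total counts, 5 and 49 on log2(FPKM + 0.1) or log2(FPKM + 1), and 4 and 49 on FPKM without a filter, and DESeq2 size factors gave 17 lower. The coding median of that comparison was 0.18, -0.14 by total counts and 0.32 with DESeq2. Leaving out each library in turn gave 2 to 5 higher and 33 to 52 lower in RS against PAC, 8 to 11 and 18 to 33 in ES against RS, and 5 to 6 and 59 to 63 in ES against PAC. The most higher calls in RS, 5, came without PAC replicate 1. Calls between ES and PAC kept within 1.5 times under every alternative. Ndufs1 and Sdhb in RS against PAC changed sign, to 0.01 and 0.02, with protein-coding genes alone. The cause of these changes was not tested. Same-numbered libraries were not shown to be paired, since their deviations correlated from -0.04 to 0.273 over 9 pairs. With the replicate block, 4 members were higher and 46 lower in RS against PAC, 10 and 33 in ES against RS, and 6 and 63 in ES against PAC. Over the named members, 2285 of 2639 values under alternatives kept direction and call, 152 lost the call, 115 gained one, 85 changed sign without a call and 2 reversed. Depth limits Cox7a1, Ndufaf6, Ndufa4, Ndufa3, Ndufc2, Ndufa1, Ndufa10 and Atp5g3, whose mean in RS was below 2 CPM.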

Other observations

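Both tested members on the X chromosome, singled out after their values were seen, were called higher in ES than in RS. So were 31.8% of protein-coding genes and 24.5% of all features, and the share among X-linked genes was not counted. Ndufa1, an accessory subunit of the membrane arm of complex I, was at 3.64, 3.14 and 2.67 CPM in PAC, 1.90, 1.28 and 1.26 in RS and 3.73, 4.13 and 2.56 in ES. Its log2 differences were -1.09 (adjusted p = 0.00386) for RS against PAC and 1.23 (adjusted p = 0.00356) for ES against RS. Ndufb11, also of the membrane arm, was at 2.05, 1.61 and 1.55 CPM in PAC, 2.53, 2.08 and 2.07 in RS and 4.86, 5.82 and 3.60 in ES, with 0.35 (adjusted p = 0.22) and 1.10 (adjusted p = 0.00361) in the same comparisons. The rise from RS to ES was called for both under all 21 alternatives, and only 3 of the 85 members, these and Ndufa4, met that. How many genes outside the members met it was not counted. Ndufb11 shares 117 exonic bases with Rbm10 on the opposite strand. Rbm10 averaged 6.15, 14.1 and 5.96 CPM in PAC, RS and ES, and its part in the Ndufb11 values was not tested. Sertoli cell and macrophage and blood markers were also higher in ES than in RS, as given above, and their part was not tested.

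A named pseudogene exists for 10 members (Atp5c1, Atp5k, Atp5l, Atp5pb, Cox5b, Cox7c, Ndufa12, Ndufab1, Ndufs5 and Uqcrh), and the sources used here do not say how reads shared with such copies were counted.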
